A study of Mus musculus with 3 samples.

Results

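Levels of 7 genes that make, sense or oxidise sterols were measured in nuclear RNA of mouse macrophages: Hmgcs1, Sqle, Idi1, Cyp51, Srebf2, Insig1 and Ch25h. They were taken by name, with no expression value used, and each matched 1 of the 55536 annotated genes. Macrophages were grown from the bone marrow of C57BL/6J mice and exposed to lipid A, the membrane-anchoring moiety of lipopolysaccharide and the ligand of the receptor TLR4, at 100 ng/ml for 12 h. They then spent 12 h without it, were given 100 ng/ml again for 15 min, and their nuclear RNA was sequenced after removal of ribosomal RNA. The labels name the material both a nuclear and a nucleoplasmic fraction. The 3 libraries form 1 group, numbered as biological replicates 1 to 3. Replicates 1 and 3 were made from 1 µg of RNA, and replicate 2 from 500 ng. Sex and age were not collected. Every library received both lipid A exposures and no library without lipid A was analysed here, so the values are levels after this treatment and not responses to it. The 3 libraries share a single donor identifier, and no source used here says that they stem from different animals. The p-values therefore measure only the spread between these samples, which may be technical.

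Cells build cholesterol from acetyl-CoA through the mevalonate pathway. When sterols in the endoplasmic reticulum run low, the escort protein SCAP carries SREBP2, the product of Srebf2, to the Golgi, where proteases release the part of it that switches on the sterol synthesis genes. INSIG proteins hold SCAP back when sterols are plentiful, and Insig1 is itself a target of SREBP2. CH25H adds a hydroxyl group to cholesterol, and the oxysterol it makes restrains SREBP processing and feeds the ligand of the migration receptor GPR183. In macrophages Ch25h is known as an interferon-stimulated gene.

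Annotated genes held between 19312032 and 23826101 expected counts per library. A gene was called detected at 1 TPM or more in all 3 libraries, TPM being transcript abundance corrected for transcript length and scaled to a fixed library total. This was a level that 9434 protein-coding genes reached, mitochondrially encoded ones included. Among the protein-coding genes encoded in the nucleus alone, 42.8% reached it. Macrophage markers were detected for 8 of 8 genes, with summed levels of 3321 to 4593 TPM. None of 5 granulocyte, 4 B cell, 4 T and NK cell, 4 dendritic cell, 4 fibroblast and 4 adipocyte or hepatocyte markers was detected. The highest of these other sums was 3.42 TPM, for the granulocyte list in replicate 1. In RNA from many cells, fewer cells of a type and less RNA per cell cannot be told apart.

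The promoters of 6 of the 7 genes were matched in RefSeq (GRCm38.p6), from 250 bases before to 50 bases after the start of transcription. Of these, 4 are shown, and those of Idi1 and Insig1 are not. Capitals mark matches, on either strand, to the sterol element core TCACNCCA, the inverted CCAAT box ATTGG, the GC box GGGCGG, the E-box CACGTG, the cyclic AMP element TGACGTCA, the interferon element core GAAANNGAA and TATAAA, motifs chosen after the sequences had been read. The windows shown are Hmgcs1 (chr13:119690101-119690400, plus strand), Srebf2 (chr15:82147019-82147318, plus strand), Cyp51 (chr5:4104648-4104947, minus strand) and Ch25h (chr19:34475099-34475398, minus strand). None of these 4 holds the interferon element core or the E-box, which among the 6 occurred only in Insig1.
Hmgcs1: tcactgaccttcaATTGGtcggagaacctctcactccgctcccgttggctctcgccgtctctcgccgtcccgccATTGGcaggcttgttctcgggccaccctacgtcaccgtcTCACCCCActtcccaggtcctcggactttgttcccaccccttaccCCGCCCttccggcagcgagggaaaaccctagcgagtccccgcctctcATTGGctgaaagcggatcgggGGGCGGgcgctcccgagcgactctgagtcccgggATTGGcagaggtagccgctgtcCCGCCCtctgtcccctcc
Srebf2: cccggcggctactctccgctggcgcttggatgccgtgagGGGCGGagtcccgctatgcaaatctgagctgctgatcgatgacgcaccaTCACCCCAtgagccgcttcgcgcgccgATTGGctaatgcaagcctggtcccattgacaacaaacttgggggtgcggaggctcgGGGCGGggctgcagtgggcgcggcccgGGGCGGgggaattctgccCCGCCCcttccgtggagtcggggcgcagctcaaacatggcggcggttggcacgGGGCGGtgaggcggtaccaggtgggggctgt
Cyp51: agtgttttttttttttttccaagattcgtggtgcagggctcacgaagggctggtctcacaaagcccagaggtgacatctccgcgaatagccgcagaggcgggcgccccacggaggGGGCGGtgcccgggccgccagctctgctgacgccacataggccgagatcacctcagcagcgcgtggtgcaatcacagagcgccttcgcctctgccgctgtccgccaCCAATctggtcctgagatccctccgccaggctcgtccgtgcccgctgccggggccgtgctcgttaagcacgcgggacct
Ch25h: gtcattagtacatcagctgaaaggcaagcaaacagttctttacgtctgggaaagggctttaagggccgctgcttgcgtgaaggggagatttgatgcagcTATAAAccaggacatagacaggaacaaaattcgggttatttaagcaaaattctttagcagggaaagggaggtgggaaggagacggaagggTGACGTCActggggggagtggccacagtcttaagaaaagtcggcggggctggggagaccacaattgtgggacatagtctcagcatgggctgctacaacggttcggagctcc

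The sterol element core occurred in Hmgcs1, 137 bases upstream of the start, and in Srebf2, 162 bases upstream, against 4.34% of 32544 mouse promoters of the same length. Hmgcs1 also held 4 CCAAT boxes and 3 GC boxes, and Srebf2 held 1 CCAAT box and 5 GC boxes. Cyp51 held 1 CCAAT box, 29 bases upstream, and 1 GC box. Idi1 held 2 CCAAT boxes and 1 GC box. In Insig1 the window held an E-box 101 bases upstream, a motif present in 7.17% of promoters, besides 1 CCAAT box and 3 GC boxes. The Ch25h window held none of these. It carried the cyclic AMP element 61 bases upstream, which 1.80% of promoters hold, and TATAAA 151 bases upstream, which 13.6% hold.

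Among 21 sterol synthesis genes, 16 had a promoter in the table, with 19 windows between them. The CCAAT box occurred in 15 of the 16 genes and in 78.9% of their windows, against 37.4% of all promoters. The GC box also occurred in 15 of the 16 genes and in 84.2% of windows, against 35.9%. These windows were richer in G and C, with a median of 61.3% against 53.0% over all promoters, and the part of base composition in the motif counts was not tested. Only Hmgcs1 and Msmo1, which encodes a sterol methyl oxidase, held the sterol element core. Exact matches alone were counted, so variants of this core were missed. These matches describe letters and not bound sites.

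Transcripts of 6 of the 7 genes were detected, and Ch25h fell below the threshold in every library. Srebf2 and the feedback protein Insig1 stood with Hmgcs1 in the upper part of the detected protein-coding genes, and Sqle, Cyp51 and Idi1 lay near the middle or below it. Percentiles below are ranks among the 9434 detected protein-coding genes.

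**Figure D1:**
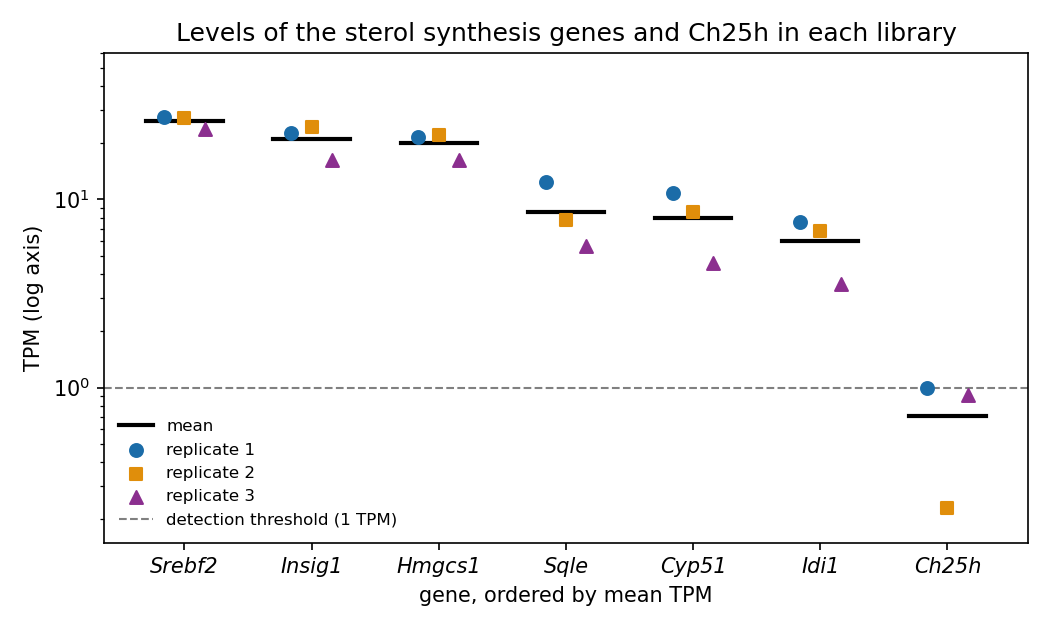
TPM of each gene (log axis) in replicates 1, 2 and 3, with the mean as a bar and the detection threshold of 1 TPM as a dashed line. Genes run from Srebf2 (mean 26.1) to Ch25h (mean 0.71), the only one whose 3 points all lie under the threshold.

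The earliest pathway enzyme of the 7 was Hmgcs1 (ENSMUSG00000093930.2, chr13:119690379-119708260, plus strand, mm10), the cytosolic synthase that makes HMG-CoA. Its levels were 21.45, 21.98 and 16.20 TPM in replicates 1, 2 and 3, or 19.9 ± 3.20 (SD, n = 3), at the 76.3 percentile of detected protein-coding genes. In TPM replicates 1 and 2 were close and replicate 3 was lowest.

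Idi1 (ENSMUSG00000058258.14, chr13:8885501-8892451, plus strand) encodes the isomerase of the pathway's isoprene units. Its levels were 7.62, 6.77 and 3.56 TPM, or 5.98 ± 2.14 (SD, n = 3), at the 37.0 percentile. Replicate 3 was again lowest, below both others by more than those differed. The paralog Idi2 reached at most 0.08 TPM, from 5 counts. Of the 50-base words in the main Idi1 transcript, 21.3% occur in other annotated genes, mostly the gene model Gm13502, which was assigned 0, 0 and 4 counts. The share of Idi1 reads that this could misplace was not tested.

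Sqle (ENSMUSG00000022351.14, chr15:59315077-59331192, plus strand) encodes squalene epoxidase, which makes the first oxygenated sterol precursor. Its levels were 12.36, 7.82 and 5.68 TPM, or 8.62 ± 3.41 (SD, n = 3), at the 49.9 percentile. Replicate 1 stood above the others.

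Cyp51 (ENSMUSG00000001467.5, chr5:4081145-4104746, minus strand) encodes the demethylase that acts on lanosterol. Its levels were 10.77, 8.58 and 4.61 TPM, or 7.99 ± 3.12 (SD, n = 3), at the 47.6 percentile. It had the widest relative range of the 6 detected genes, with a highest value 2.34 times its lowest. That ratio was 2.18 for Sqle, 2.14 for Idi1, 1.50 for Insig1, 1.36 for Hmgcs1 and 1.15 for Srebf2. Its end overlaps Akap9 on the opposite strand, which held 2637, 2808 and 2662 counts. No source used here states the strand setting of the counting, so reads from the overlap cannot be told apart.

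Srebf2 (ENSMUSG00000022463.8, chr15:82147181-82205379, plus strand), the regulator, had the highest level. It stood at 27.38, 27.17 and 23.72 TPM, or 26.1 ± 2.06 (SD, n = 3), at the 82.6 percentile. It varied least of the 7 genes. Its span holds the microRNA gene Mir33, whose product targets cholesterol export genes. Mir33 was listed at 0 with an effective length of 0, so these long-fragment libraries give no level for it.

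Insig1 (ENSMUSG00000045294.11, chr5:28071363-28078662, plus strand), the sterol-sensing retention protein, stood at 22.55, 24.25 and 16.16 TPM. The mean was 20.99 ± 4.27 (SD, n = 3), at the 77.8 percentile. As for Hmgcs1, replicates 1 and 2 were close in TPM and replicate 3 was lowest. For both genes replicate 2 was the highest library on the TPM scale, but replicate 1 was highest after values were rescaled over nuclear-encoded protein-coding genes, with 107.6 against 99.1 for Hmgcs1 and 113.1 against 109.4 for Insig1. This rescaling, added after the data were seen, moved the median log2 difference of all detected protein-coding genes between replicates 1 and 2 from -0.17 to -0.05. In the deposited kallisto-format values, rescaled alike, Hmgcs1 stood at 111.3, 89.7 and 70.4, so replicates 1 and 2 were no longer close. Insig1 stood at 99.6, 90.6 and 71.2 there.

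Ch25h (ENSMUSG00000050370.5, chr19:34473778-34475164, minus strand) stood apart at 0.99, 0.23 and 0.91 TPM, or 0.71 ± 0.418 (SD, n = 3). Behind these values lay 42, 7 and 35 expected counts after rounding, with exact Poisson 95% intervals of 30.3 to 56.8, 2.81 to 14.4 and 24.4 to 48.7 that cover counting error only. Replicate 2 was the low library, and its interval did not overlap the others. Replicate 1 was just under the detection threshold. The lncRNA gene Gm26902, which overlaps it on the opposite strand, held 6.05, 2 and 7.16 expected counts. On the log2(TPM + 1) scale Ch25h lay below the mean of Hmgcs1, Sqle, Idi1 and Cyp51 by a difference of -2.73, -3.17 and -1.95 in replicates 1, 2 and 3, or -2.62 ± 0.62 (SD, n = 3). It was lower in 3 of 3 libraries.

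Not every step in the order of levels was larger than the spread. Srebf2 exceeded Insig1 by 0.32 ± 0.19 on the log2(TPM + 1) scale (SD, n = 3), in 3 of 3 libraries. Insig1 and Hmgcs1 differed by 0.07 ± 0.07 and changed places in replicate 3, so their order was not resolved. Hmgcs1 exceeded Sqle by 1.16 ± 0.36 in 3 of 3 libraries. Sqle and Cyp51 differed by 0.11 ± 0.20 and changed places in replicate 2. Cyp51 exceeded Idi1 by 0.35 ± 0.09, and Idi1 exceeded Ch25h by 2.01 ± 0.71, each in 3 of 3 libraries. The 2 unresolved steps depended on the quantification. In kallisto-format values rescaled over nuclear protein-coding genes, Sqle exceeded Cyp51 by 0.22 ± 0.12 in 3 of 3 libraries. There the mean difference of Insig1 from Hmgcs1 was -0.04 ± 0.10, and the other steps kept their direction in 3 of 3 libraries. Since the design has 1 group of 3, these are descriptions without a test.

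The wider pathway was present almost whole. Of 21 sterol synthesis genes 20 were detected. Among the highest were Msmo1, at 33.45, 32.50 and 21.82 TPM, and Hmgcs1. The lowest detected was Mvk, mevalonate kinase, at 2.16, 3.01 and 1.45 TPM. Hsd17b7, a sterol ketoreductase, missed the threshold in replicate 3 only, at 2.42, 1.42 and 0.99 TPM.

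All 12 genes of SREBP control were detected. Rnf145, a sterol-regulated ubiquitin ligase, had the highest mean at 27.4 ± 1.85 TPM (SD, n = 3). It stood above Srebf2 in replicate 3 only, at 29.43 TPM, and below it in replicates 1 and 2, at 26.79 and 25.86 TPM. The escort Scap stood at 4.92, 5.56 and 5.19 TPM and Insig2, the paralog of Insig1, at 3.67, 4.75 and 5.09 TPM, both below Insig1 in every library. Srebf1, the paralog of Srebf2 best known for fatty acid synthesis, stood at 19.08, 19.53 and 22.14 TPM. It was below Srebf2 in every library in these values, but in the kallisto-format values, rescaled over nuclear protein-coding genes, it was above Srebf2 in replicate 3, at 126.3 against 102.6.

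Of 10 genes of cholesterol uptake and storage 9 were detected. Lysosomal and storage genes were the highest, with Npc2 at 176.3 ± 10.5, Lipa at 139.5 ± 35.9 and Soat1 at 131.0 ± 22.4 TPM (SD, n = 3). Stard4, a sterol carrier, was the lowest detected at 4.55 ± 1.18 TPM.

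In the oxysterol list, of which Ch25h is a member, 6 of 11 genes were detected. Cyp7b1, which acts on the CH25H product, had 0 counts in each library. Scaled to the library totals, the exact Poisson 95% upper limits were 0.155, 0.191 and 0.170 CPM in replicates 1, 2 and 3, for counting error only. Hsd3b7, whose enzyme acts after CYP7B1 and does not make the GPR183 ligand, stood at 14.94, 14.68 and 16.08 TPM. Gpr183 was the lowest detected at 1.36, 1.31 and 1.14 TPM. Its level depended on the quantification. Rescaled over nuclear protein-coding genes, it was 18.9, 21.8 and 11.3 in kallisto-format values, against 6.82, 5.91 and 5.52 for TPM. Cyp27a1, a mitochondrial hydroxylase that makes another oxysterol, stood at 7.46, 19.19 and 11.96 TPM. Its lowest library still exceeded the highest of Ch25h, and it was highest in replicate 2, where Ch25h was lowest. The receptor genes Nr1h3 and Nr1h2, which encode the LXR proteins that oxysterols activate, stood at 32.2 ± 10.6 and 20.8 ± 2.65 TPM (SD, n = 3).

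Interferon-stimulated genes were far above Ch25h in the same libraries. All 10 listed were detected, from Usp18 at 65.06, 66.85 and 97.88 TPM to Rsad2 at 593.81, 825.20 and 1146.11 TPM. Ifit2 and Mx1 followed Rsad2 at 656.4 ± 143.3 and 520.8 ± 173.1 TPM (SD, n = 3). All of them had their highest level in replicate 3 or replicate 2. The highest library of Ch25h was not resolved, since replicates 1 and 3, at 0.99 and 0.91 TPM, had overlapping count intervals. In TPM, Isg15, Irf7 and Cmpk2 were lowest in replicate 2, as Ch25h was, and the others were lowest in replicate 1. This split depended on the scale. After rescaling over nuclear protein-coding genes Mx1, Oasl1 and Usp18 were also lowest in replicate 2, and in CPM Oasl1 and Usp18 were.

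Each library was then compared with the other 2 in edgeR's quasi-likelihood test over 14350 genes, which compares libraries and not conditions. Ch25h was left out by the filter on low counts, because replicate 2, at 0.362 CPM, fell under its minimum of 0.460 while replicates 1 and 3, at 1.76 and 1.60, passed it. None of the other 6 genes was called at a Benjamini-Hochberg adjusted p under 0.05 in replicate 1, where 0.202% of all genes were called, in replicate 2 (0%) or in replicate 3 (0.00697%). DESeq2 also called none of the 6, and 0.581%, 0.0849% and 0.274% of all genes. At an unadjusted p under 0.05 edgeR counted 2, 0 and 2 of the 6, against 6.15%, 6.11% and 3.74% of all genes, and DESeq2 counted 2, 0 and 1, against 3.55%, 3.07% and 1.94%. Without the filter, edgeR called Ch25h in replicate 2, with a log2 difference of -2.28 and a Benjamini-Hochberg adjusted p of 0.0475, where 1.44% of all genes were called. It called none of the 7 in replicates 1 and 3, where 0% and 0.662% were called. The single library of each comparison has no spread of its own, so the SEs and p-values assume that it varies like the other 2.

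Sqle and Cyp51 were the members with the largest excess in replicate 1. The log2 difference of Sqle from the other libraries was 0.91 ± 0.25 (SE), with an edgeR Benjamini-Hochberg adjusted p of 0.263. For Cyp51 it was 0.77 ± 0.27 (SE), with an edgeR adjusted p of 0.531. In replicate 3 the log2 differences were -0.84 ± 0.30 (SE) for Cyp51, -0.75 ± 0.31 for Idi1 and -0.72 ± 0.35 for Sqle, each with an edgeR adjusted p of 1.00. Hmgcs1, Insig1 and Srebf2 stayed closer, between -0.34 and 0.36 in all 3 comparisons.

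No sterol synthesis gene passed singly, but most were lowest in replicate 3, a pattern noticed in these data. On the TPM scale 19 of the 21 were higher in replicate 1 than in replicate 3, against 51.2% of all detected protein-coding genes. Their median log2 difference between those libraries was 0.38, and 0.96 for Hmgcs1, Sqle, Idi1 and Cyp51 alone, against 0.01 over all detected protein-coding genes. Without those 4 genes the count was 15 of 17 and the median 0.33. Replicate 3 was the lowest library for 18 of the 21, against 42.4% of all. The place of replicate 2 was less uniform: 12 of the 21 had the full order from replicate 1 down to replicate 3, against 12.4% of all, and replicate 1 was the highest library for 13. After rescaling over nuclear protein-coding genes the count was 20 of 21 and the background 57.7%. Ebp was among the 20 with replicates 1 and 3 all but equal, at 35.767 and 35.763.

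**Figure D2:**
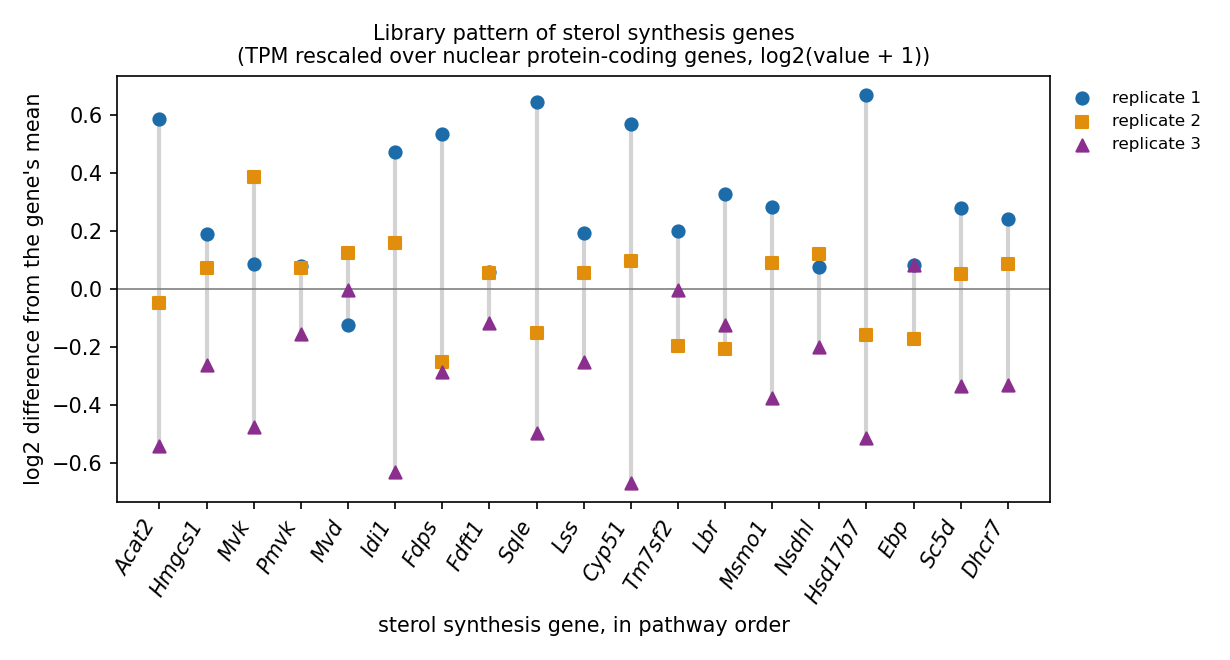
Sterol synthesis genes (19 of the 21), in pathway order, as the log2 difference of each library from the gene's mean, after TPM was rescaled over nuclear protein-coding genes. Replicate 1 lies above replicate 3 for 18 of the 19 genes drawn, with Mvd as the exception, and Sqle, Cyp51 and Hsd17b7 have the widest spans. Ebp is counted among the 18, though its replicates 1 and 3 are all but equal, at 35.767 and 35.763.

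Outside the 7 genes, Fdps, farnesyl diphosphate synthase, had the full order from replicate 1 down to replicate 3 in TPM, at 11.63, 7.42 and 6.73. Replicate 3 stood above replicate 2 in CPM, at 11.64 against 10.92. The same held in kallisto-format values rescaled over nuclear protein-coding genes, at 27.9 against 26.9. Mvd and Ebp were the genes not higher in replicate 1 on the TPM scale, at 3.14 against 3.55 and 7.13 against 7.38 TPM. Fdps, Mvd and Ebp were singled out after their values were seen.

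Lists of other lipid genes differed in the comparison of replicates 1 and 3. Fatty acid genes under SREBP1 control were higher in replicate 1 than in replicate 3 for 10 of 10, with a median log2 difference of 0.54 on the TPM scale. In that list Scd2 led at 93.14, 113.82 and 60.35 TPM, followed by Fads1 at 24.6 ± 5.32 and Acly at 20.9 ± 1.52 TPM (SD, n = 3), and Gpam was the lowest of 7 detected at 1.77 ± 0.306 TPM. SREBP control genes, with Srebf2 and Insig1 among them, were higher in replicate 1 for 4 of 12, with a median of -0.10. That median turned to 0.03, with 6 of 12 higher, in CPM and was close to 0, with 6 of 12 higher, in kallisto format. Genes of uptake and storage were higher for 5 of 10, with a median of -0.03 in TPM that turned to between 0.04 and 0.06 on the other 3 scales. Interferon-stimulated genes were higher in replicate 1 for 0 of 10, with a median of -0.59.

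**Figure D3:**
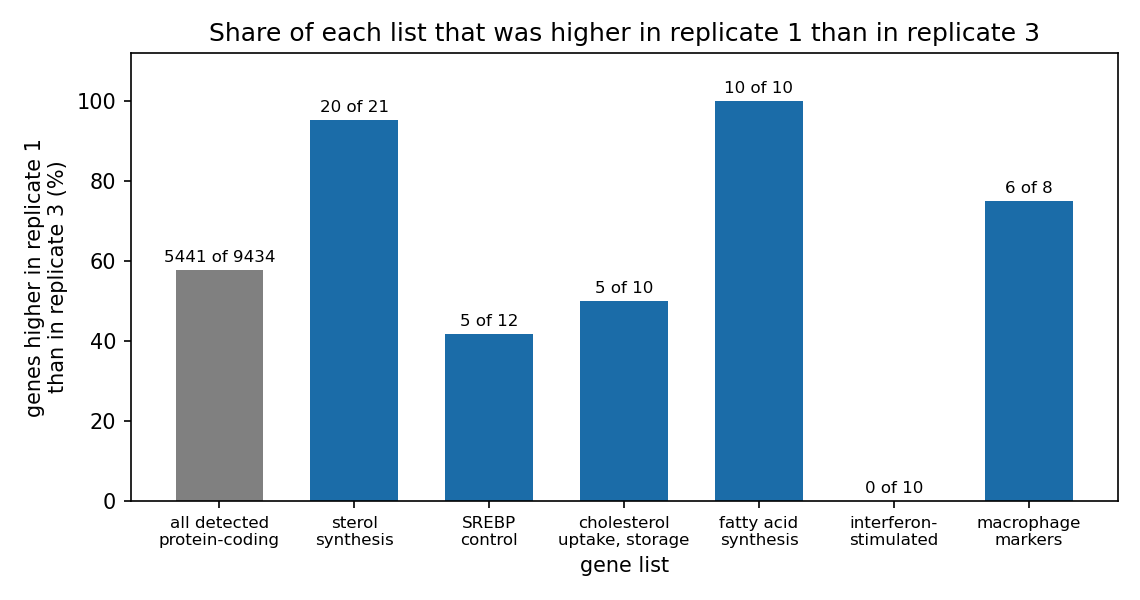
Percentage of the genes of each list that were higher in replicate 1 than in replicate 3, after rescaling TPM over nuclear protein-coding genes, with counts above the bars. Sterol synthesis (20 of 21) and fatty acid synthesis (10 of 10) lie above all detected protein-coding genes (57.7%), and no interferon-stimulated gene was higher in replicate 1.

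Library properties that differed beside these genes were the following, and their part in the pattern was not tested. The summed macrophage markers were 4593, 4041 and 3321 TPM in replicates 1, 2 and 3, although 6 of the 8 markers were higher in replicate 1 than in replicate 3 with a median log2 difference of only 0.08. Mitochondrial mRNA held 4.25%, 4.98% and 2.30% of counts. Rows outside the annotation held 0.827%, 0.275% and 0.0547% of all expected counts. Nuclear protein-coding genes held 20.0%, 22.2% and 20.6% of TPM. Replicates 1 and 3 had the same RNA input.

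For likeness, detected genes within 0.5 log2 units of the same mean level were ranked by the root mean square difference of their centred log2(TPM + 1) values over the 3 libraries. Among the 3 of 2488 candidates nearest to the mean of the 4 enzyme genes were Gm3448 (15.72, 13.57 and 8.46 TPM) and Skp1a (11.69, 9.96 and 6.40 TPM). Their differences were 0.022 and 0.027 log2 units. Only 14 candidates, or 0.563%, came within 0.1. Nearest to Ch25h, among 126 candidates, were Dctpp1 (1.63, 1.01 and 1.34 TPM), Enkd1 and Mcts2, at 0.18, 0.20 and 0.20 log2 units. Candidates had to reach the detection threshold in every library, which Ch25h did not, so none could follow its drop in replicate 2. That none came within 0.1 was thus fixed by the filter and cannot be set against the count for the enzyme genes. With 3 points that share depth and input, such likeness is a description only.

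Nuclear RNA includes transcripts whose introns are not yet removed, and the annotation models some of these as retained-intron isoforms. All 6 detected genes have such an isoform. Ch25h has 1 transcript of 1 exon and can have none. The share of the gene's TPM in such isoforms had a median of 23.9% over the 5980 detected protein-coding genes that have one. The means of all 6 genes were below that median in TPM. Sqle turned to the other side in kallisto-format TPM, at 31.3% against 28.6%, and in expected counts, at 28.6% against 13.6%. Hmgcs1 stood at 9.14%, 7.74% and 7.47% in replicates 1, 2 and 3, or 8.12% ± 0.894 (SD, n = 3). Cyp51 stood at 12.8%, 10.1% and 2.83%, and Idi1 at 9.32%, 13.2% and 5.32%. These 3 enzyme genes were the lowest of the 6. 

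Srebf2 stood at 19.6%, 21.4% and 18.5%, or 19.9% ± 1.49 (SD, n = 3). Insig1 stood at 19.0%, 28.9% and 20.2%, and Sqle at 15.7%, 31.1% and 21.8%. For both genes replicate 2 was above the median of all genes and the other libraries were below it. Without replicate 1 the means of Sqle and Insig1 were above the median computed from the same libraries, which left 4 of 6 genes below it. Among the 15 sterol synthesis genes with such an isoform the median share of TPM was 13.4%, and 2 genes exceeded the median of all genes: Lss, lanosterol synthase, at 41.5% ± 6.56, and Ebp, the sterol isomerase, at 55.3% ± 3.40 (SD, n = 3). This depended on the scale. In expected counts Sqle, Mvk, Fdps, Tm7sf2, Lbr and Msmo1 also exceeded the median of all genes, at 13.6%. In kallisto format Sqle, Mvk and Tm7sf2 also exceeded it, at 28.6%. The remaining genes of the list stayed below it on all these scales.

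**Figure D4:**
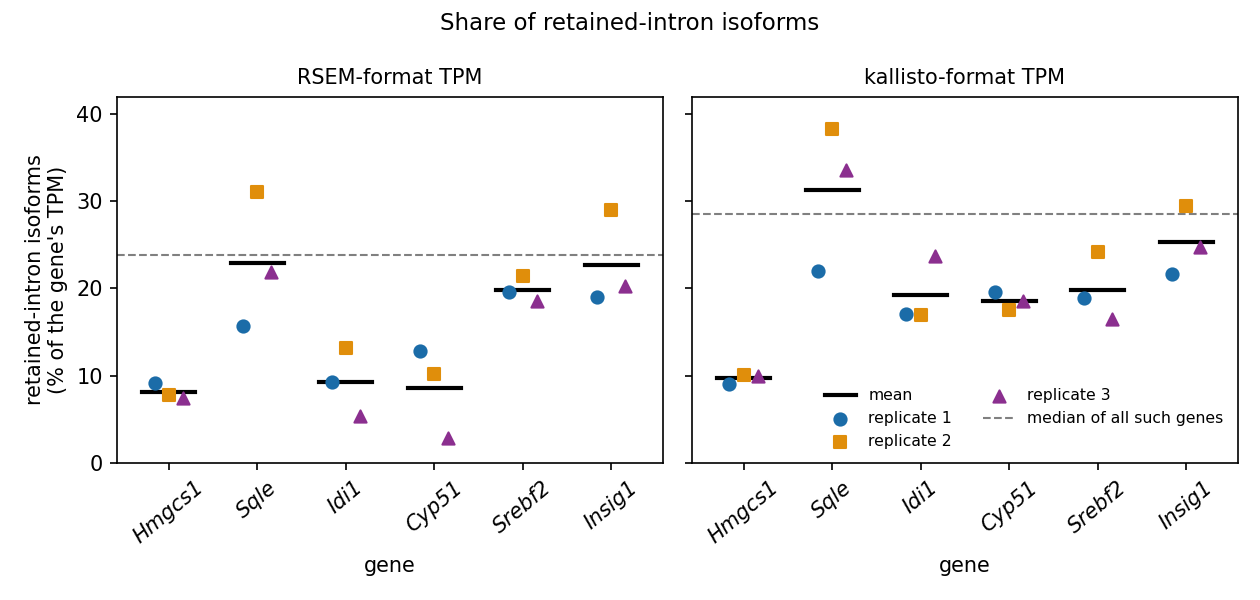
Retained-intron isoforms as a percentage of the gene's TPM in replicates 1, 2 and 3, with the mean as a bar and the median of all such genes as a dashed line. In the RSEM-format values all 6 means lie below the line, and in the kallisto-format values Sqle (31.3%) lies above its line at 28.6%.

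The borders of the introns kept in 3 of these isoforms show where intron letters enter the counted transcript. Each was read from the annotated transcript. Capitals mark the intron and lower case the exon. They are the end of intron 3 in Insig1-202 (chr5:28075022-28075081, plus strand, mm10), the start of intron 4 in Srebf2-205 (chr15:82172880-82172939, plus strand) and the start of intron 9 in Sqle-204 (chr15:59326647-59326706, plus strand).
Insig1-202: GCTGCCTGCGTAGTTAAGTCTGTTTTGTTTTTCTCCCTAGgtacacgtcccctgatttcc
Srebf2-205: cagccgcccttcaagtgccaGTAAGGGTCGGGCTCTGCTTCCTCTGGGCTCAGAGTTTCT
Sqle-204: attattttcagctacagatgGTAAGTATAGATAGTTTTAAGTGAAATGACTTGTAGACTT

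Insig1-202 holds 396 of the 413 bases of its intron and carried 83.8, 97.9 and 59.8 expected counts. Srebf2-205 holds 995 of 2197 bases and carried 217.0, 189.5 and 145.2. Sqle-204 holds 2292 of 3073 bases and carried 215.6, 212.2 and 125.9. The spliced isoform Sqle-201 carried 948.3, 354.2 and 364.1 expected counts. These counts are not scaled for depth. In TPM, Sqle-201 was lower in replicate 2 than in replicate 1, at 5.39 against 10.23, whereas Sqle-204 was higher, at 1.93 against 1.39. Reads in introns that no annotated isoform holds were not counted in these tables. Inside Hmgcs1, the opposite-strand gene Gm48342 held 112.1, 65.1 and 58.0 expected counts, and inside Srebf2 the same-strand model Gm49502 held 176, 93 and 92. The first cannot be told apart from Hmgcs1 without strand.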

How the data were processed

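Nuclear total RNA of 3 macrophage libraries was measured. The expected counts, TPM and posterior mean TPM, and FPKM are the authors' deposited RSEM-format estimates per gene and transcript made on mm10 and GENCODE M21, as stated per the file headers. Tool and version were not given in the sources used here. Estimated counts and TPM in kallisto format were also deposited by the authors. TPM was analysed as log2(TPM + 1), with detection at 1 TPM in all 3 libraries. Expected counts were rounded and each library was compared with the other 2 in edgeR 4.0.16 (TMM, filterByExpr, glmQLFTest, Benjamini-Hochberg threshold 0.05), with DESeq2 1.42.0 as an alternative. Standard errors were taken as the log2 difference divided by the root of F. Rows outside the annotation were left out. Depth was 19312032 to 23826101 expected counts, so the 7 to 42 Ch25h reads set its precision.

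The 7 genes, the gene lists and the tests were chosen with earlier results of these data known. Named genes were the 7, for each list the 3 highest and the lowest detected, the paralogs, 9 genes of sterol sensing and oxysterol metabolism, and the 3 genes most like Ch25h and like the mean of the 4 enzymes. Alternatives were other quantifications, pseudocounts, thresholds, filters and each library left out. Some genes that this rule names are not reported here. Analyses used Python 3.11.15 and R 4.3.3.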

Additional observations from a re-analysis of the deposited data

How the results depend on the processing

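Under TPM thresholds of 0.5 and 2, equal nuclear protein-coding sums and without 1 library each, the detected counts of the 7 genes, SREBP control and uptake held. Sterol synthesis counts ranged from 18 to 21 against 20, fatty acid counts from 6 to 9 against 7 and oxysterol counts from 5 to 6 against 6. With kallisto-format TPM as deposited they fell to 3 of the 7 genes, 3 sterol synthesis genes and 4 fatty acid genes. With the nuclear protein-coding sums of the RSEM-format values, an alternative added after seeing the data, they were 6, 20 and 8. The log2 difference of Ch25h from the 4 enzymes was -2.62. It was -3.69 with a pseudocount of 0.1, -1.88 with kallisto-format TPM, -3.47 with TPM and -3.64 with kallisto-format TPM over nuclear protein-coding genes (both added later), and -2.95 to -2.34 without 1 library each. With no filter on low counts 1 of the 7 genes was called in replicate 2 against the others: Ch25h, with a log2 difference of -2.28 and an edgeR Benjamini-Hochberg adjusted p of 0.0475, against 0.954 and 0.991 in replicates 1 and 3. The number of all genes called then was 0, 349 and 161 in replicates 1, 2 and 3, against 29, 0 and 1. It was 2, 0 and 1 with DESeq2's size factors in edgeR and 72, 11 and 34 with DESeq2. The causes were not tested. Of 63 alternative levels 62 moved by less than 1 SD. The exception was Srebf2 rescaled over nuclear protein-coding genes, at 110.5 in kallisto format against 125.0. For most of the 63 this outcome was fixed in advance. Leaving out 1 of 3 libraries cannot move a mean by 1 SD, and rescaled FPKM repeats rescaled TPM apart from rounding. Only the posterior mean TPM and the kallisto-format values could have moved further, so the count does not measure robustness.

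Retained-intron shares in kallisto format were 9.70% for Hmgcs1, 31.3% for Sqle, 19.2% for Idi1 and 18.6% for Cyp51. As shares of expected counts they were 4.38% for Hmgcs1, 2.05% for Idi1, 1.29% for Cyp51, 9.16% for Srebf2, 6.14% for Insig1 and 28.6% for Sqle, a share that weights each isoform by its length. Of the 6 genes, 5 lay below the median of all such genes in either alternative, and 4 to 6 without 1 library each. The count of sterol synthesis genes higher in replicate 1 than in replicate 3 was 19 or 20 on every scale. No paired analysis was possible because there is 1 group. Leaving out a library in the library tests was not run, since 1 against 1 leaves no residual degrees of freedom.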
